A study of Mus musculus with 4 samples.

Results

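The homing and egress genes of lymph node lymphocytes described here are 9 of the 32285 genes measured: Ccr7, S1pr1, Klf2, Cd69, Cxcr4, Cxcr5, Gpr183, Itga4 and Ccr9. The rule names them by role and uses no measured value, though they were chosen with earlier results of these data known. They were read in 4 gated classes of the 32725 cells that passed the cell filter, and over all of these cells together. The gates held 14686 B cells (at least 1 Cd79a molecule, no Cd3e), 5197 CD4 T cells (Cd3e and Cd4, no Cd8a, no Cd79a), 5901 CD8 T cells (Cd3e and Cd8a, no Cd4, no Cd79a) and 636 regulatory T cells (Tregs, Foxp3 and Cd3e). Of the Tregs, 307 also stood in the CD4 T gate, so the CD4 T and Treg values share cells. The other Tregs held Cd79a (84 cells), held Cd8a without Cd79a (48 cells) or held none of Cd4, Cd8a and Cd79a (197 cells).

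Lymphocytes enter a lymph node from the blood, settle in its T zone or its follicles, and leave through the lymph. Ccr7 draws T and B cells into the node and its T zone, and Cxcr5 draws B cells into follicles. The oxysterol receptor Gpr183 places cells at follicle edges, and Cxcr4 answers Cxcl12 and holds cells in place. The sphingosine 1-phosphate receptor S1pr1 guides cells out into lymph, Cd69 removes S1pr1 protein from the cell surface, and the transcription factor Klf2 switches S1pr1 on. Itga4 is an integrin chain used in adhesion to vessels, and Ccr9 directs cells to the gut and thymus.

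The study asked what extracellular vesicles (EVs), small membrane particles released here by induced pluripotent stem cells (iPSCs), do to immune cells in draining lymph nodes. Cells from wildtype C57BL/6 mice were profiled one by one in droplets (10x 3′ RNA sequencing), with 2 control libraries and 2 EV libraries. The EV mice received 100 µg of iPSC EVs under the skin in total. The control mice are labelled as untreated, and the study's methods say that they were injected with PBS. The labels give a treatment duration of 24 hours for all 4 libraries, while the series' design text places the harvest at 5 days, and the labels do not say how many mice stand behind a library. The study's methods call the libraries of a group biological replicates, and the p-values measure the spread between them.

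The libraries held 50749656 to 70418672 unique molecular identifiers (UMIs, single counted transcripts) and 7891 to 8529 filtered cells each, and any pair shared 11 to 24 cell barcodes. The B, CD4 T and CD8 T gates differed in Ms4a1 and Cd8b1, which were not used for gating. Ms4a1, a B cell surface protein, stood at 807 to 909 CPM (the UMIs of a gene scaled to the same library total everywhere) in B cells and at 0.68 to 2.62 CPM in CD4 and CD8 T cells. Cd8b1 stood at 830 to 933 CPM in CD8 T cells and at 11.2 to 19.8 CPM in CD4 T cells. The Treg gate held B cell RNA: 6 B cell markers other than Cd79a stood there at 1.42% to 7.29% of their B cell level. The share of B cells among all cells stood at 37.0% and 31.7% for controls against 59.6% and 50.4% with EV treatment. The ratio of B cells to CD4 and CD8 T cells was 0.984 and 0.718 in control against 2.53 and 1.64 in EV. CD4 T cells made up 17.0% and 20.6% of control cells against 11.3% and 14.9% of EV cells, and CD8 T cells 20.7% and 23.6% against 12.3% and 15.9%. None of these shares overlapped between the groups, but the exact permutation test of 2 libraries against 2 cannot give a p below 0.33 (two-sided), which each of them reached. A share does not tell more B cells from fewer T cells. With each cell thinned to 1000 UMIs before gating, the B cell share was 34.4% and 29.6% against 55.0% and 46.4%, while few T cells could still be gated (CD4 T cells 1.97% and 2.09% against 1.22% and 1.81%).

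The 9 genes stood at different levels in the 3 larger classes. Cxcr5 was highest in B cells: its level was 16.6-fold lower in CD4 T cells and 13.2-fold lower in CD8 T cells than in B cells. Ccr9 stood 33.8-fold higher in CD8 T cells than in B cells and 23.1-fold higher than in CD4 T cells. Ccr7 was 2.45-fold and S1pr1 2.51-fold higher in CD4 T cells than in B cells, and in CD8 T cells the folds over B cells were 2.31 and 2.33. Gpr183 fell in the order B, CD4 T, CD8 T, being 1.69-fold and 3.26-fold lower in CD4 and CD8 T cells than in B cells. Cxcr4 was 3.16-fold lower in CD4 T cells and 1.86-fold lower in CD8 T cells than in B cells. Klf2, Cd69 and Itga4 were also highest in B cells, by 1.16-fold to 1.51-fold over the T cell classes. Of the 27 differences between class pairs, 26 passed edgeR's quasi-likelihood test with library as a block (adjusted p below 0.05), the exception being Ccr7 between CD8 and CD4 T cells (1.07-fold, adjusted p = 0.19). This has little weight for the members as a set, since 67.4% of all genes tested passed between CD4 T and B cells, 71% between CD8 T and B cells and 39.8% between CD8 and CD4 T cells.

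**Figure D1:**
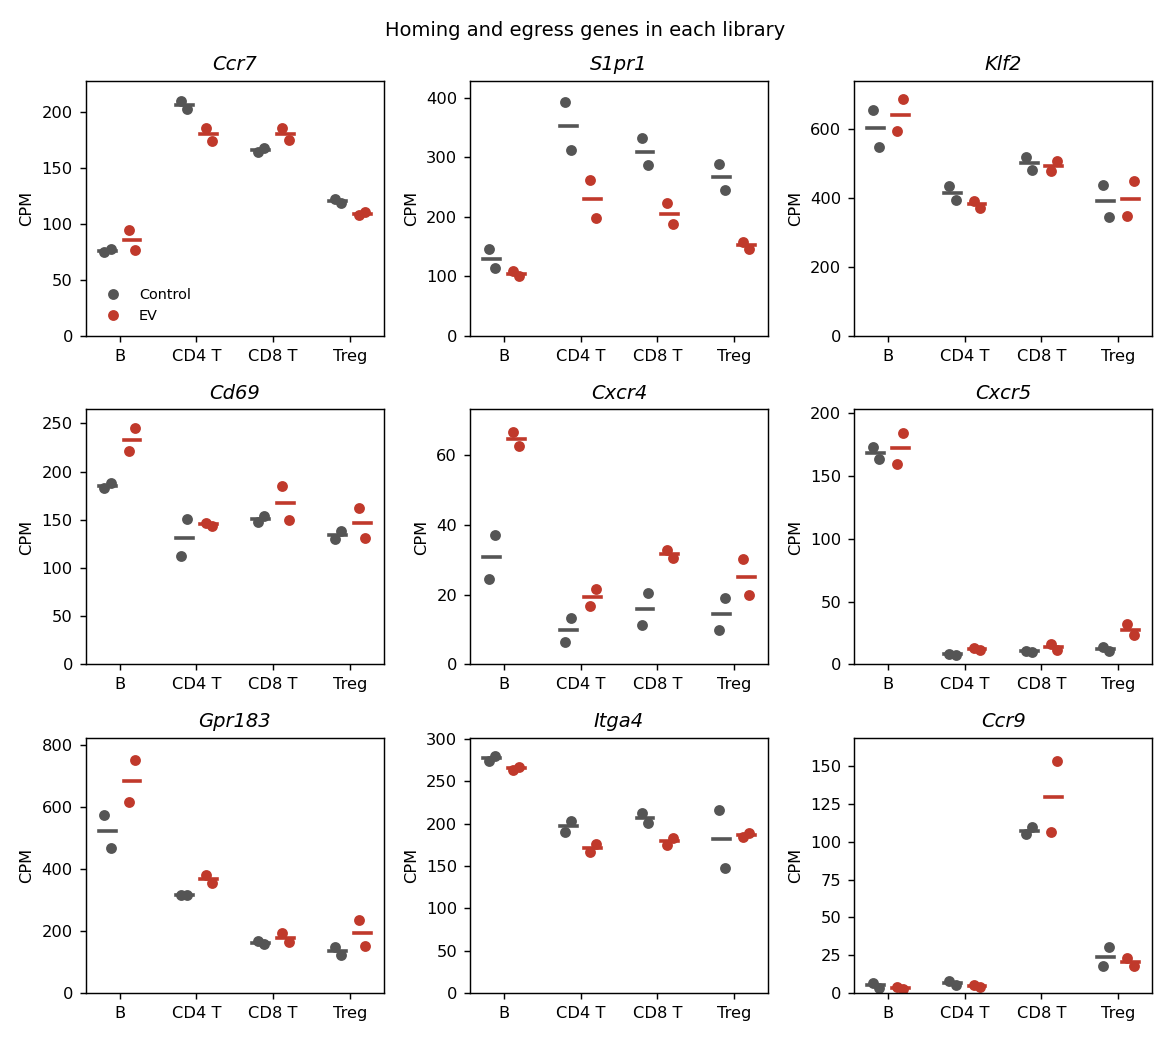
Level of each homing and egress gene (CPM of the summed UMIs, vertical axes from 0) in B, CD4 T, CD8 T and Treg gates, with 1 point per library (grey control, red EV) and a line at the group mean. The S1pr1 points of EV libraries lie below all control points in every gate, the Cxcr4 points lie above them in every gate, and Cxcr5 in B cells overlaps between groups. The Cxcr4 gap in Tregs is narrow (19.1 CPM in control library 2, 19.7 CPM in EV library 2). Of all genes tested, the groups did not overlap for 51.8% (B), 49.4% (CD4 T), 49.7% (CD8 T) and 37.1% (Treg).

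For the comparison of EV with control, the UMIs of each class were summed within each library, and all 9 genes passed the filter on low counts in every class and over all cells. The background of the test differed between classes: 2.55% of 13270 genes were called in B cells (1.57% higher and 0.98% lower in EV), 1.09% of 11933 in CD4 T cells (0.788% higher, 0.302% lower), 2.2% of 12284 in CD8 T cells (1.34% higher, 0.855% lower), 0.124% of 8876 in Tregs (0.0789% higher, 0.0451% lower) and 8.2% of 16106 over all cells (5.21% higher, 2.99% lower). Among the 9 genes, edgeR called 1 in B cells, 2 in CD8 T cells, none in CD4 T cells, none in Tregs and 5 over all cells. At an unadjusted p below 0.05 by edgeR there were 4 of 9 in B cells (18.9% of all genes) and 5 in CD4 T cells (16.7%). In CD8 T cells there were 4 (18.2%), in Tregs 3 (7.57%) and over all cells 6 (27.1%). DESeq2 called S1pr1 in CD4 T cells and in Tregs. The 2 groups of libraries did not overlap for 5 of 9 genes in B cells (51.8% of all genes), 7 in CD4 T cells (49.4%), 5 in CD8 T cells (49.7%), 5 in Tregs (37.1%) and 6 over all cells (60.2%), so separation of 2 against 2 libraries was common among all genes. A fit without an EV library takes its spread from the controls alone, which differed less from each other than the EV libraries did. A gene that passed in such a fit, here and below, gains little weight from it. The counts of called genes leaned on single libraries. Without control library 1 they were 97 in B cells, 94 in CD4 T cells, 187 in CD8 T cells, 27 in Tregs and 725 over all cells, and without control library 2 they were 195, 177, 365, 18 and 748. Without EV library 1 they were 2584, 2077, 2168, 72 and 3802, and without EV library 2 they were 946, 852, 724, 136 and 2626. The members called numbered 1 to 5 in B cells, 0 to 4 in CD4 T cells, 1 to 6 in CD8 T cells and 0 to 2 in Tregs over these fits.

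S1pr1, the exit receptor, was lower in the EV libraries, and the change passed the test in CD8 T cells and over all cells. In CD8 T cells its level was 332 and 287 CPM (control) against 223 and 189 CPM (EV). Both EV libraries stood below both controls, and the log2 fold change was -0.59 (SE 0.10 and adjusted p = 0.015 by edgeR, ratio 0.664). Leaving out control library 1 ended this call (log2 fold change -0.48, edgeR adjusted p = 0.10), while the other 3 leave-one-out fits kept it.

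In CD4 T cells the S1pr1 level was 393 and 313 CPM (control) against 262 and 198 CPM (EV). The groups did not overlap, and the log2 fold change was -0.62 (SE 0.14 and adjusted p = 0.070 by edgeR). This difference was close in size to that in CD8 T cells but missed the threshold. It passed without control library 2 (-0.77), without EV library 1 (-0.82), without EV library 2 (-0.42), in cells thinned to 1000 UMIs each (-0.59, edgeR adjusted p = 0.013), in CD4 T cells without a Foxp3 UMI (-0.61, edgeR adjusted p = 0.045) and under the cell filter without upper limits (-0.66, edgeR adjusted p = 0.049). It did not pass without control library 1 (-0.44). With all 4 libraries kept, 6 of 11 alternative settings called it. Those that did not included removal of doublets, and their highest edgeR adjusted p was 0.070.

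In Tregs the S1pr1 level was 289 and 245 CPM (control) against 158 and 146 CPM (EV), a log2 fold change of -0.82 (SE 0.15 and adjusted p = 0.059 by edgeR). These values rest on 446, 322, 163 and 163 UMIs. With all 4 libraries kept, 3 of 10 alternative settings called the Treg difference, and the highest edgeR adjusted p was 0.52. It was not called in thinned cells, under the cell filter without upper limits, with doublets removed or with the stricter gate. With 1 library left out it ranged from -0.93 to -0.69 (-0.88 without EV library 1, -0.75 without EV library 2). In B cells the level was 146 and 113 CPM (control) against 110 and 100 CPM (EV). The groups there were separated by a narrow gap, the log2 fold change was -0.31 (SE 0.12 and adjusted p = 0.23 by edgeR), and without control library 1 it was -0.11. Without EV library 1 it was -0.37, with the spread taken from the controls alone. S1pr1 stood higher in T cells, and T cell RNA in the B gate was lower in EV (Cd3d, given below). The part of that RNA in the B cell value of S1pr1 was not tested. The direction was downward in every class and in every alternative fit run for S1pr1.

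Cxcr4, the receptor for Cxcl12, was higher in the EV libraries and passed the test in B cells, in CD8 T cells and over all cells. In B cells its level was 24.5 and 37.1 CPM (control) against 66.4 and 62.6 CPM (EV), from 342, 504, 2028 and 1641 UMIs. The EV libraries stood well above both controls, the mean level was 2.10-fold higher, and the log2 fold change was 1.07 (SE 0.16 and adjusted p = 0.016 by edgeR). Every alternative fit in B cells kept this call, with log2 fold changes from 0.80 (without control library 1) to 1.40 (without control library 2).

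In CD8 T cells the Cxcr4 level was 11.2 and 20.6 CPM (control) against 32.9 and 30.5 CPM (EV), a log2 fold change of 0.97 (SE 0.19 and adjusted p = 0.025 by edgeR). The control libraries differed from each other by nearly as much as the second control differed from EV. The value was 0.62 without control library 1 and 1.50 without control library 2, both called. The call was lost in cells thinned to 1000 UMIs (0.70, edgeR adjusted p = 0.31) and under the cell filter without upper limits (0.93, edgeR adjusted p = 0.069).

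In CD4 T cells the Cxcr4 level was 6.33 and 13.2 CPM (control) against 16.8 and 21.6 CPM (EV), from 57, 156, 132 and 218 UMIs. The groups did not overlap, and the log2 fold change was 0.94 (SE 0.26 and adjusted p = 0.11 by edgeR). It was 0.54 and not called without control library 1, and called without control library 2 (1.61), EV library 1 (1.11) or EV library 2 (0.74). In Tregs the level was 9.73 and 19.1 CPM (control) against 30.1 and 19.7 CPM (EV), from 15 to 31 UMIs a library, and the log2 fold change of 0.80 (SE 0.38 and adjusted p = 0.66 by edgeR) was not called. Control library 1 was the lowest library for Cxcr4 in every class.

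**Figure D2:**
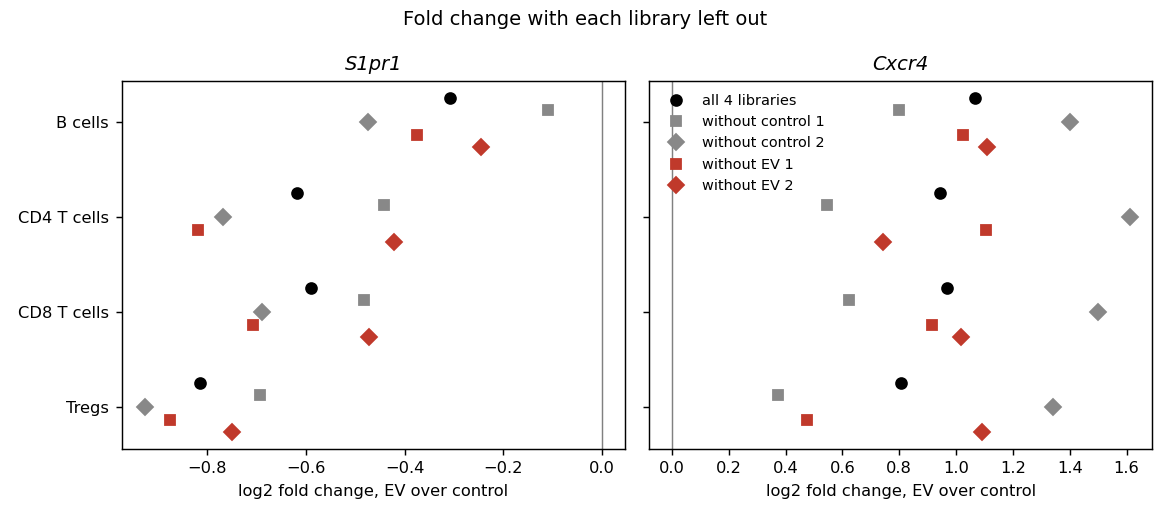
Log2 fold change (EV over control, horizontal axes) of S1pr1 and Cxcr4 in each class with all 4 libraries (black circle) and with each library left out (grey control, red EV). S1pr1 stays below 0 and Cxcr4 above 0 in every fit, with Cxcr4 in CD4 T cells ranging from 0.54 to 1.61.

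Cxcr4 lies on chromosome 1 (GRCm38, 128588199 to 128592293, minus strand). The 250 bases before its start site in RefSeq (GRCm38.p6, chr1:128592300-128592549, minus strand) are shown because it is the member that rose in B and CD8 T cells, with short core promoter motifs in capitals.

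Cxcr4 promoter: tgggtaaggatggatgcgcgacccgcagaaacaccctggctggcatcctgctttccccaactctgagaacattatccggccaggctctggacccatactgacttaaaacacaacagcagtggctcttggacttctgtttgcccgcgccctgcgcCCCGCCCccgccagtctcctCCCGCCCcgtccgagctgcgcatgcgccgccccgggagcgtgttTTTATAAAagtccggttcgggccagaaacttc

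The capitals mark, from the 5′ side, the GC box CCCGCCC with its first bases at 96 and 76 bases before the start, and TATAAA on both strands, overlapping, at 32 and 30 bases before it. Each motif was searched on both strands. Of 32851 mouse promoter windows of the same source, CCCGCCC was in 23.4% and TATAAA in 12.4%. A match describes letters only. RefSeq windows were also matched for Itga4, Klf2, Ccr9 and Gpr183, so 5 of the 9 genes had one.

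Klf2 and Cd69 act on S1pr1, as its transcriptional activator and as a partner that removes its protein. Klf2 was not called in any class or over all cells. Its level was 655 and 549 CPM (control) against 594 and 687 CPM (EV) in B cells, where the groups overlapped and the log2 fold change was 0.09 (SE 0.13 and adjusted p = 0.75 by edgeR). In CD8 T cells, where S1pr1 fell, Klf2 stood at 518 and 483 CPM in control against 478 and 506 CPM in EV (log2 fold change -0.02, SE 0.09 and adjusted p = 0.92 by edgeR). In CD4 T cells it stood at 435 and 394 CPM against 393 and 372 CPM (log2 fold change -0.12, SE 0.10 and adjusted p = 0.59 by edgeR). In Tregs the log2 fold change was 0.03 (SE 0.16).

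Cd69, an early activation marker, was called by edgeR over all cells and in no single class. In B cells its level was 183 and 188 CPM (control) against 221 and 245 CPM (EV), without overlap, and the log2 fold change was 0.33 (SE 0.09 and adjusted p = 0.11 by edgeR). The B cell value passed without EV library 1 (0.40), with DESeq2 (0.35, adjusted p = 0.031) and with no filter on low counts (0.37, adjusted p = 0.012 by edgeR). For CD8 T cells the levels were 148 and 153 CPM against 185 and 150 CPM, and only EV library 1 stood apart. The log2 fold change was 0.15 there (SE 0.10 and adjusted p = 0.44 by edgeR) and passed without EV library 2 (0.29), while it was 0.0001 without EV library 1. For CD4 T cells it was 0.14 (SE 0.12) and in Tregs 0.13 (SE 0.16), with overlapping groups in both. Over all cells the levels were 143 and 153 CPM (control) against 190 and 188 CPM (EV) (log2 fold change 0.35, SE 0.07 and adjusted p = 0.037 by edgeR), and the call was lost without control library 1 (0.31), without control library 2 (0.40), in cells thinned to 1000 UMIs (0.34, adjusted p = 0.051 by edgeR) and under the cell filter without upper limits (0.28, adjusted p = 0.057 by edgeR).

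Ccr7, Cxcr5 and Gpr183, receptors that place cells within the node, were not called in any single class. Ccr7 in CD4 T cells was 210 and 202 CPM (control) against 186 and 174 CPM (EV), a log2 fold change of -0.20 (SE 0.09 and adjusted p = 0.31 by edgeR) that passed without EV library 1 (-0.23). In CD8 T cells Ccr7 was 164 and 168 CPM (control) against 185 and 175 CPM (EV), a log2 fold change of 0.12 (SE 0.08 and adjusted p = 0.45 by edgeR). Ccr7 thus stood below the controls in the EV libraries of CD4 T cells and above them in those of CD8 T cells. In B cells it was 75.1 and 77.2 CPM against 94.8 and 76.7 CPM, with overlap (log2 fold change 0.17, SE 0.11). The value passed without EV library 2 (0.31) and was 0.012 without EV library 1.

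Cxcr5 in B cells was 173 and 163 CPM (control) against 160 and 185 CPM (EV). The EV libraries lay on either side of the controls, and the log2 fold change was 0.03 (SE 0.10 and adjusted p = 0.89 by edgeR). In CD4 T cells, at a much lower level, Cxcr5 was 8.56 and 7.64 CPM against 12.9 and 11.4 CPM, without overlap (log2 fold change 0.58, SE 0.18 and adjusted p = 0.14 by edgeR), and it passed without EV library 2 (0.68). Within the CD8 T gate the Cxcr5 log2 fold change was 0.40 (SE 0.16 and adjusted p = 0.22 by edgeR) and passed without EV library 2 (0.62), while it was 0.18 without EV library 1 and 0.084 in cells thinned to 1000 UMIs. In Tregs it was 1.13 (SE 0.34 and adjusted p = 0.36 by edgeR), from 14 to 33 UMIs a library. The 6 B cell markers other than Cd79a stood in the Treg gate at 6.32%, 1.42%, 7.29% and 7.17% of their B cell level (control 1, control 2, EV 1, EV 2). Only control library 2 stood apart. The part of B cell RNA in the Treg value was not tested. That share of B cell RNA would carry 11.1, 2.34, 11.4 and 13.1 CPM of Cxcr5 against 14.1, 10.4, 31.5 and 23.4 CPM observed. In CD4 T cells it would carry 0.27 to 0.41 CPM and in CD8 T cells 0.49 to 0.65 CPM.

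Gpr183 in B cells was 575 and 467 CPM (control) against 616 and 752 CPM (EV). Both EV libraries were higher, and the log2 fold change was 0.39 (SE 0.14 and adjusted p = 0.19 by edgeR). It passed without EV library 1 (0.53), with DESeq2 (0.41, adjusted p = 0.034) and with no filter on low counts (0.43), and was 0.25 without control library 2 and 0.24 without EV library 2, neither called. Within the CD4 T gate it was 315 and 316 CPM against 381 and 356 CPM (log2 fold change 0.22, SE 0.09 and adjusted p = 0.27 by edgeR) and passed without EV library 2 (0.28). In CD8 T cells the groups overlapped (0.14, SE 0.09), and the value passed without EV library 2 (0.25), was 0.027 without EV library 1 and was -0.06 in cells thinned to 1000 UMIs. In Tregs the value was 0.50 (SE 0.20 and adjusted p = 0.55 by edgeR) and passed without EV library 2 (0.80), while it was 0.14 without EV library 1. The share of B cell RNA in the Treg gate would carry 37.1, 6.69, 44.0 and 53.2 CPM of Gpr183 (control 1, control 2, EV 1, EV 2) against 146, 120, 233 and 151 CPM observed.

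Itga4 and Ccr9 were not called in any class or over all cells. Itga4 was 212 and 200 CPM (control) against 175 and 183 CPM (EV) in CD8 T cells (log2 fold change -0.20, SE 0.08 and adjusted p = 0.22 by edgeR) and passed without EV library 2 (-0.24). In CD4 T cells it was 190 and 203 CPM against 166 and 176 CPM (log2 fold change -0.20, SE 0.09 and adjusted p = 0.30 by edgeR), and in B cells 274 and 280 CPM against 264 and 267 CPM (-0.06, SE 0.09). The EV libraries were thus slightly lower in these 3 classes, by less than the test could call. Ccr9 in CD8 T cells was 105 and 110 CPM (control) against 107 and 153 CPM (EV), so EV library 2 alone stood apart (log2 fold change 0.28, SE 0.13 and adjusted p = 0.28 by edgeR). Without EV library 1 this value was 0.52 and called, and without EV library 2 it was -0.01. Ccr9 was low elsewhere, at 2.37 to 7.78 CPM in B and CD4 T cells. In B cells its log2 fold change was -0.73 (SE 0.34 and adjusted p = 0.28 by edgeR). It was -1.10 without EV library 1, -0.15 without control library 1 and -0.45 without EV library 2. Ccr9 stood far higher in CD8 T cells, and T cell RNA in the B gate was lower in EV (Cd3d, given below). The part of that RNA in the B cell value of Ccr9 was not tested.

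**Figure D3:**
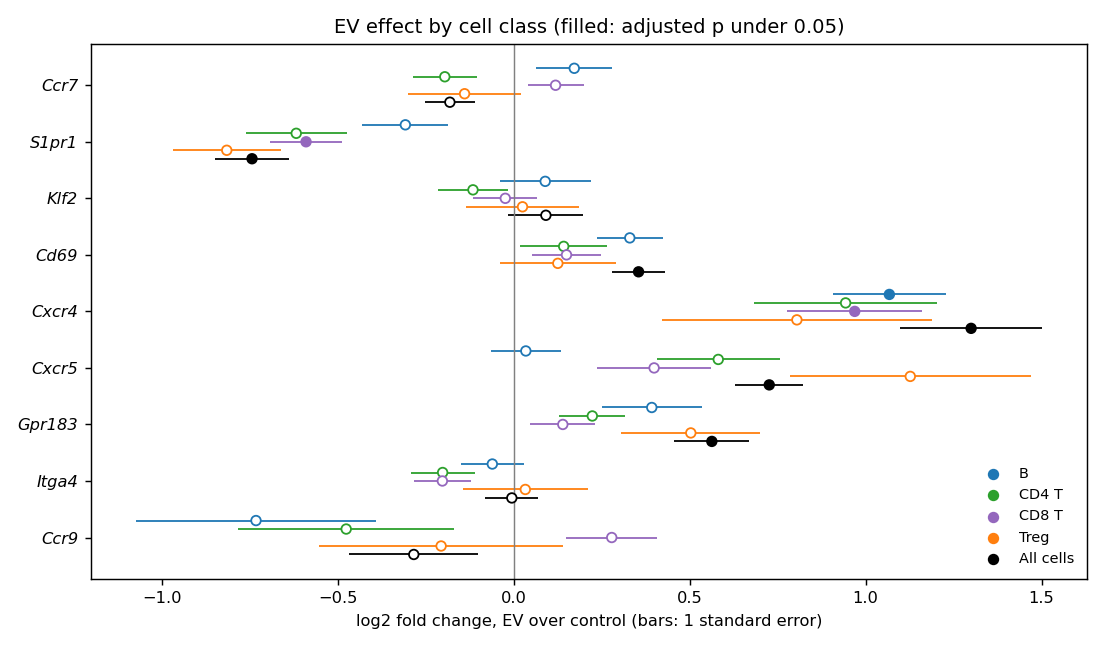
Log2 fold change of each gene (EV over control, horizontal axis) with 1 standard error, by class and over all cells. Filled points passed the test (edgeR adjusted p below 0.05), which were Cxcr4 in B cells, S1pr1 and Cxcr4 in CD8 T cells, and S1pr1, Cd69, Cxcr4, Cxcr5 and Gpr183 over all cells.

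Whether the EV effect differed between classes was tested directly, as a difference of differences with library as a block, over 27 pairs of class and gene. One passed: the Ccr7 effect was higher in CD8 than in CD4 T cells by 0.32 on the log2 scale (SE 0.05 and adjusted p = 0.016 by edgeR), where 0.377% of all genes passed. It was 0.27 to 0.36 with any 1 library left out, all called. It was not called in cells thinned to 1000 UMIs (0.47, edgeR adjusted p = 0.37) or under the cell filter without upper limits (0.33, edgeR adjusted p = 0.050). For S1pr1 the effect in CD8 T cells was lower than in B cells by 0.28 (SE 0.07 and adjusted p = 0.073 by edgeR) and differed from that in CD4 T cells by 0.03 (SE 0.06 and adjusted p = 0.95 by edgeR). For Cxcr4 the effects in CD4 and CD8 T cells differed from that in B cells by -0.07 (SE 0.18) and -0.06 (SE 0.11), neither called. None of the 9 genes passed between T and B cells, where 1.79% (CD4 T) and 1.71% (CD8 T) of all genes did. A larger difference of S1pr1 in T cells than in B cells was therefore not shown.

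The shift from T to B cells moved the level of several genes over all cells, so each was recomputed with the class shares held at the mean of the 4 libraries, and again with the class levels held and the shares left as measured. These are shares of UMIs, not of cells, over B, CD4 T, CD8 T and all remaining cells. B cells held 27.8% and 24.1% of UMIs in control against 51.1% and 42.1% in EV. The remaining cells held 18.6% to 27.5%. Shifts of cell type or state within them, or within the B, CD4 T and CD8 T gates, were not held fixed. Cxcr5 moved with the shares: over all cells its mean level rose from 54.8 ± 7.6 to 88.7 ± 1.8 CPM (SD, n = 2 libraries each), a log2 ratio of 0.69, which was 0.05 with the shares fixed and 0.65 with the levels fixed. Ccr7 was -0.21 observed, -0.02 with the shares fixed and -0.20 with the levels fixed. Its log2 fold change was 0.17 in B cells, 0.12 in CD8 T cells and -0.20 in CD4 T cells, none called. The Ccr7 value near 0 with the shares fixed thus joins class differences of opposite sign. The Cxcr4 log2 ratio of 1.27 was 1.02 with the shares fixed and 0.25 with the levels fixed. The S1pr1 log2 ratio of -0.77 was -0.57 with the shares fixed and -0.20 with the levels fixed. For both genes the value with the shares fixed was the larger of these. Gpr183 had a part of its difference in each (0.53 observed, 0.28 with the shares fixed, 0.27 with the levels fixed), and for Cd69 the values were 0.32, 0.22 and 0.11. Ccr9 was -0.31 over all cells, -0.48 with the levels fixed and 0.14 with the shares fixed. Its log2 fold change was negative in B cells, CD4 T cells and Tregs and positive in CD8 T cells, where its level is highest. Klf2 and Itga4 stayed within 0.13 of 0 in every version.

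**Figure D4:**
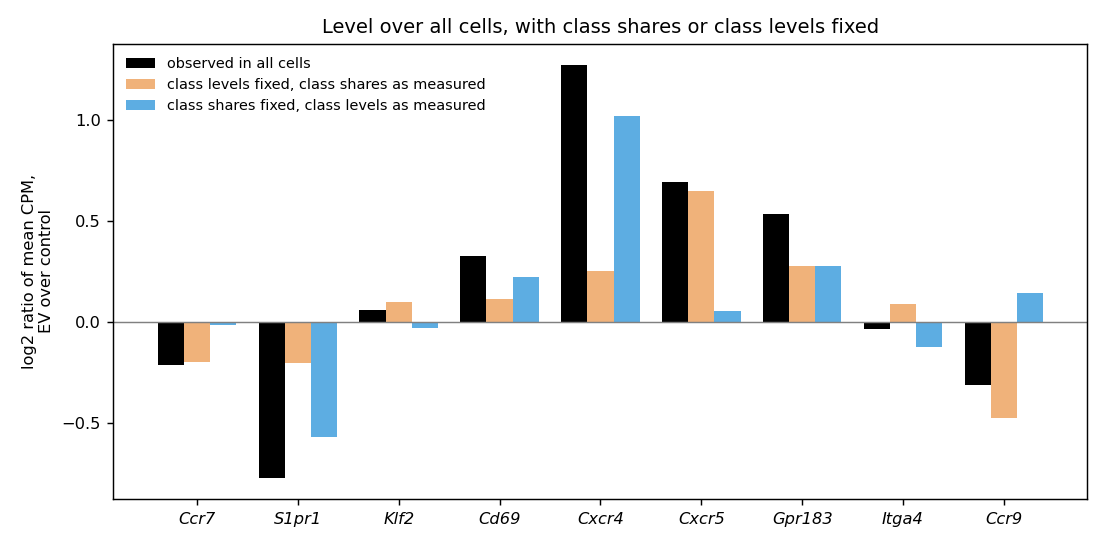
Log2 ratio of mean CPM over all cells, EV over control (vertical axis), as observed (black), with class levels fixed and shares as measured (orange), and with class shares fixed and levels as measured (blue). Shares are of UMIs in B, CD4 T, CD8 T and all remaining cells. The Cxcr5 bar nearly vanishes with the shares fixed (0.05), while the Cxcr4 (1.02) and S1pr1 (-0.57) bars remain.

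The edgeR test over all cells does not separate shares from levels. It called S1pr1 (log2 fold change -0.74, adjusted p = 0.013), Cxcr4 (1.30, 0.017), Cxcr5 (0.73, 0.011), Gpr183 (0.56, 0.028) and Cd69 (0.35, 0.037). The Gpr183 call was lost without control library 2 (0.45, edgeR adjusted p = 0.18). The Ccr7 value over all cells (-0.18, edgeR adjusted p = 0.16) passed without EV library 1 (-0.21), and that of Ccr9 (-0.28, edgeR adjusted p = 0.36) passed without EV library 2 (-0.61) and was -0.018 without EV library 1.

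The share of cells with at least 1 UMI of a gene was compared after each cell was thinned to 1000 UMIs, which left out 73 to 122 cells a library. EV cells were deeper: median UMIs per B cell were 4141.5 and 4905 in control against 5811 and 5615 in EV, and per CD8 T cell 7397 and 8565 against 9871 and 9110. Among CD8 T cells, S1pr1 was detected in 28.6% and 25.1% of control cells and in 19.8% and 17.9% of EV cells. Among CD4 T cells the shares were 30.4% and 26.2% against 22.1% and 18.2%, and among B cells 12.7% and 10.9% against 9.33% and 8.99%. After thinning, the share of cells with S1pr1 was thus lower in both EV libraries than in both controls in each of these classes. Cxcr4 was detected in 2.36% and 3.93% of control B cells against 5.79% and 6.26% of EV B cells. Among CD8 T cells the Cxcr4 shares were 1.49% and 1.88% against 2.29% and 3.10%, and in CD4 T cells 0.65% and 1.36% against 1.63% and 3.24%. None of these overlapped (exact permutation p = 0.33, the smallest possible). In the macrophage-like cells with C1q UMIs, used as a background, Cxcr4 was found in 1 thinned cell and S1pr1 in 3, all from control library 2. Before thinning these background cells numbered 28 to 54 a library, with median UMIs of 987 to 1253. Without thinning, the S1pr1 difference in B cells was 0.48 percentage points upward, against -2.68 with thinning.

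Cells were also split by whether they held a Cd69 UMI, within each library. Cd69 acts on S1pr1 protein, so this split of RNA cannot test that action. The split was made for the members only, so no share over all genes stands beside its counts. Of 24 comparisons (8 genes in 3 classes), 5 went the same way in all 4 libraries, each at the smallest exact p that sign flips of 4 libraries allow, which is above 0.05. In CD8 T cells S1pr1 was lower in cells with a Cd69 UMI by 0.23 on the log2 scale (SD 0.22, n = 4). By library this difference was -0.0055 and -0.091 in control against -0.49 and -0.33 in EV. It rests on 72 and 73 S1pr1 UMIs (control) and 23 and 29 (EV) in the cells with Cd69. Without thinning it was -0.19 and -0.11 in control against -0.41 and -0.20 in EV, so EV library 2 was nearly level with control library 1. In B cells Cxcr5 was higher in cells with a Cd69 UMI by 0.29 (SD 0.28) and Gpr183 by 0.23 (SD 0.06). The other 2, Cxcr4 and Ccr9 in CD4 T cells, rest on at most 4 UMIs in the cells with Cd69. Among CD4 T cells S1pr1 was lower in 3 of 4 libraries (log2 difference -0.13, SD 0.21), and in all 4 without thinning (-0.13, SD 0.04). Among B cells S1pr1 was higher in cells with a Cd69 UMI in 2 of 4 libraries (0.05, SD 0.38), and in all 4 without thinning (0.12, SD 0.10).

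The other genes of the pathway were read from lists of receptors, enzymes, adhesion molecules, regulators, signalling proteins and ligands. Among 19 other chemokine receptors, 11 were tested in B cells and none was called. Among CD4 T cells 1 of 11 was called: Ccr6, the receptor for Ccl20, fell (7.67 and 12.0 CPM against 3.05 and 3.17 CPM, log2 fold change -1.67, SE 0.28 and adjusted p = 0.018 by edgeR). For CD8 T cells 1 of 6 was called: Cxcr3, a receptor of effector T cells, rose (24.2 and 23.0 CPM against 35.0 and 32.9 CPM, log2 fold change 0.52, SE 0.10 and adjusted p = 0.021 by edgeR). None of 7 was called in Tregs.

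Of the 11 other genes of sphingosine 1-phosphate (its other receptors, kinases, lyase, phosphatases and the transporter Spns2), none was called in B cells (9 tested), CD4 T cells (5), CD8 T cells (5) or Tregs (4). Spns2 in B cells was 12.2 and 9.28 CPM (control) against 14.1 and 14.5 CPM (EV) (log2 fold change 0.41, SE 0.15 and adjusted p = 0.18 by edgeR). Over all cells 2 of 10 rose, S1pr3 and Spns2. The enzymes that make and degrade the Gpr183 ligand (Ch25h, Cyp7b1, Hsd3b7) were too low to test in T cells, and Hsd3b7, the one tested in B cells, was not called. Of 7 chemokine ligands, 4 were found in the files by name, 2 were tested in B cells and none was called there. Over all cells Cxcl13, the ligand of Cxcr5, rose from 0.58 and 0.88 CPM to 2.31 and 2.14 CPM (log2 fold change 1.60, SE 0.27 and adjusted p = 0.020 by edgeR).

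Among 16 adhesion genes, Icam1, which binds the integrin LFA-1, rose in B cells (30.0 and 33.2 CPM against 46.0 and 41.9 CPM, log2 fold change 0.48, SE 0.10 and adjusted p = 0.045 by edgeR) and in CD8 T cells (27.6 and 34.5 CPM against 51.8 and 49.5 CPM, log2 fold change 0.70, SE 0.11 and adjusted p = 0.008 by edgeR). It was the one called of 15 tested in B cells and of 13 in CD8 T cells. Itgb1, the partner chain of Itga4, was the one called of 14 in CD4 T cells, where it rose from 96.9 and 76.3 CPM to 147 and 173 CPM (log2 fold change 0.89, SE 0.12 and adjusted p = 0.008 by edgeR). Among CD8 T cells Itgb1 was 74.7 and 66.1 CPM against 57.4 and 59.0 CPM and not called (log2 fold change -0.27, SE 0.09 and adjusted p = 0.13 by edgeR).

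The list of 17 transcription factors around Klf2 held the most calls. It was chosen with earlier results of these data known, so its count of calls is no test of the list. In B cells 5 of 16 were called lower and none higher: Klf4 (log2 fold change -1.25), Klf6 (-0.62), Klf7 (-0.51), Lef1 (-0.75) and Tcf7 (-1.45), against 0.98% of all genes called lower. Satb1, a chromatin organiser, was at 367 and 368 CPM against 855 and 526 CPM there and just missed the threshold (log2 fold change 0.91, SE 0.20 and adjusted p = 0.053 by edgeR). Klf4, a relative of Klf2 tied to quiescence, fell from 18.1 and 14.2 CPM to 7.01 and 6.60 CPM. Tcf7 and Lef1 are better known from T cells, and T cell RNA in the B gate moved with the groups: Cd3d stood at 16.9 and 10.8 CPM in control B cells against 7.28 and 4.40 CPM in EV B cells. Its part in these values was not tested. Klf6, an early response factor, also fell in CD4 T cells (86.8 and 95.6 CPM against 67.1 and 60.5 CPM, log2 fold change -0.52, SE 0.10 and adjusted p = 0.034 by edgeR) and in CD8 T cells (99.0 and 95.7 CPM against 80.2 and 67.6 CPM, log2 fold change -0.40, SE 0.09 and adjusted p = 0.045 by edgeR). Batf, a factor of activated T cells, rose in CD4 T cells (34.6 and 44.5 CPM against 83.0 and 59.1 CPM, log2 fold change 0.83) and in CD8 T cells (32.0 and 33.0 CPM against 68.8 and 42.8 CPM, 0.77). Of 17 tested in CD4 T cells and 16 in CD8 T cells, Klf6 and Batf were the ones called, and none of 15 in Tregs.

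Of the genes of receptor signalling and motility, 32 of the 34 listed names were found. Rgs2, which dampens G protein signals, fell in B cells (47.4 and 53.0 CPM against 31.2 and 35.7 CPM, log2 fold change -0.59, SE 0.10 and adjusted p = 0.027 by edgeR). Grk5, a kinase that desensitises receptors, rose in CD8 T cells (9.84 and 11.8 CPM against 17.2 and 17.7 CPM, log2 fold change 0.69, SE 0.14 and adjusted p = 0.026 by edgeR). These were the ones called of 31 and 29 tested, and none was called in CD4 T cells (30) or Tregs (30). The median log2 fold change of this list lay between 0.02 and 0.11 in the 4 classes, beside medians within 0.01 of 0 for all genes. Over all cells, where class shares also enter, the genes called in these lists were Ccr6, Icam1, Icam2, Grk5 and Rgs18 (higher) and Ccr10, Klf6, Tcf7, Zbtb16, Arrb2 and Rgs10 (lower), beside those already named.

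The genes most like each member were read over the 16 sums of class and library, which share cells between CD4 T cells and Tregs and are separated mainly by class. Cxcr4 was most like Mlxip (Pearson r = 0.96), Tsc22d3 (0.95) and Mef2d (0.91). Mlxip, a glucose-sensing transcription factor, rose with EV in B cells (88.7 and 98.0 CPM against 142 and 150 CPM, log2 fold change 0.65, adjusted p = 0.012 by edgeR) and among CD8 T cells (0.49, adjusted p = 0.027). The 16 sums include both groups, so a gene picked as like Cxcr4 tends to move with EV, and its change is no separate support. Tsc22d3, a gene induced by glucocorticoids, shared the low value of control library 1: in B cells it was 112 and 205 CPM in control against 285 and 245 CPM in EV (log2 fold change 0.74, SE 0.23 and adjusted p = 0.13 by edgeR). S1pr1 was most like Ggact (0.97), Frat2 (0.95) and Kmt2d (0.95), and Ccr7 most like Rpl5 (0.98), Glo1 (0.98) and Rpl12 (0.97). Cxcr5 was most like Abhd17b, Pou2af1 and Pml (all 0.99), of which Pou2af1 is a B cell coactivator, and Ccr9 most like Gm44174 (0.99), Cd8b1 (0.99) and Nkg7 (0.98). Klf2 was most like Anxa7 (0.95), Acd (0.95) and Acss1 (0.94), and Cd69 most like Clta, Ptrh2 (both 0.93) and Hsh2d (0.92). Gpr183 was most like Gimap6 (0.95), Ifngr2 (0.93) and Hist3h2a (0.92), and Itga4 most like Cab39l, Rnf122 and 1110032A03Rik (all 0.94). Between members over the same sums, S1pr1 and Cxcr4 had r = -0.81, S1pr1 and Ccr7 0.83, Cxcr4 and Cd69 0.88, and Klf2 and Itga4 0.88.

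Signs of cell state and handling moved with the groups beside these results. The summed level of 8 heat shock genes in CD8 T cells was 2196 and 2265 CPM in control against 3459 and 3833 CPM in EV, with 6 of 8 called higher, and in B cells it was 1584 and 1806 CPM against 2969 and 3152 CPM, again with 6 of 8 called higher. For CD4 T cells 5 of 7 and in Tregs 5 of 6 were called higher. Of 12 early response genes such as Fos and Jun, which rise when cells are dissociated, none was called higher in any class, and Egr1 was called lower in B and CD8 T cells. Of 6 glucocorticoid-induced genes, Fkbp5 was called higher in B cells (log2 fold change 0.70, edgeR adjusted p = 0.014) and none in the other 3 classes. The list did not move one way: of the 5 tested in B cells, Tsc22d3 (0.74) and Ddit4 (0.63) were also higher. Per1 (-0.44) and Sgk1 (-0.44) were lower there, and apart from Fkbp5 none was called. The part of these signals in the S1pr1 and Cxcr4 results was not tested. Among B cells gated as naive (with Ighd and Fcer2a UMIs, a gate chosen after seeing the data), the Cxcr4 log2 fold change was 1.05 by edgeR (adjusted p = 0.0013). B cell RNA in the CD4 T and CD8 T gates would carry 0.05 to 0.25 CPM of Cxcr4, against 6.42 to 32.1 CPM observed. In the Treg gate it would carry 1.58, 0.53, 4.74 and 4.43 CPM against 9.58, 18.5, 29.6 and 19.8 CPM observed (control 1, control 2, EV 1, EV 2), and its part in the Treg value was not tested.

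The other genes lie, on GRCm38, at chromosome 11 from 99144196 to 99155077 (Ccr7, minus strand), chromosome 3 from 115710433 to 115715072 (S1pr1, minus), chromosome 8 from 72319033 to 72321656 (Klf2, plus), chromosome 6 from 129267325 to 129275436 (Cd69, minus), chromosome 9 from 44511787 to 44561877 (Cxcr5, minus), chromosome 14 from 121952551 to 121965195 (Gpr183, minus), chromosome 2 from 79255426 to 79333123 (Itga4, plus) and chromosome 9 from 123678439 to 123784330 (Ccr9, plus). Cxcr5 overlaps Bcl9l, Gpr183 overlaps Ubac2 and Itga4 overlaps Cerkl, each on the opposite strand. Ccr9 overlaps Slc6a20a, Lztfl1 and AC165425.1 on the opposite strand and Gm17200 on its own, so how reads shared with Gm17200 were assigned is uncertain.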

How the data were processed

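The deposited files hold raw UMI counts per gene and cell, which the authors made with Cell Ranger 7.1.0 on mm10, per the submitters' processing notes. Cells with 200 to 5000 genes, at most 20000 UMIs and under 10% mitochondrial UMIs were kept, 94.2% to 97.4% of barcodes a library, and doublets (Scrublet, 1.58% to 3.76%) were removed only as an alternative. Counts were summed by gate and library and compared with edgeR 4.0.16 in R 4.3.3 (quasi-likelihood F test, two-sided, TMM library sizes, filterByExpr, Benjamini-Hochberg over all genes, threshold 0.05), with DESeq2 1.42.0 as an alternative. Python 3.11.15, scanpy 1.11.5 and scipy 1.17.1 were used for cells, shares and exact permutation tests. CPM divides by TMM library sizes, except in the recomputation with fixed shares, the carried B cell RNA and the Cd69 split, which use plain totals. In the Cd69 split the totals leave out Cd69 UMIs, and 1 CPM was added before taking logs. With 1 library left out, the spread comes from the other group, and the lone library is assumed to vary like it. That is doubtful without an EV library, since EV libraries differed more from each other than controls did. Chi-square per degree of freedom was 36.2 (EV) against 5.98 (control) in B cells and 13.2 against 4.82 in CD4 T cells. It was 14.6 against 5.93 in CD8 T cells and 4.09 against 2.74 in Tregs. The code was tested on simulated data. Counts of 2 libraries of a group differed beyond sampling noise (chi-square per degree of freedom 2.74 to 60.7), and the 9 genes rest on 14 to 34553 UMIs per gene, class and library. Exact (Clopper-Pearson, 95%) intervals and counting floors cover counting error only.

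The genes and lists were chosen with earlier results of these data known. The text names all 9 genes, the called genes of each list with at most 4 others a list, and the 3 genes most alike to each (Pearson r of log2(CPM + 1), mean of at least 10 CPM). Alternatives covered the test, low-count filter, replicate block, library size, thinning, cell filter, ribosomal share, doublets, gates and each library left out. The naive B cell gate, the alternatives for the Ccr7 difference and the heat shock and other handling lists were chosen after seeing the data. An alternative gate of the T cells is not reported here. Same-numbered libraries did not pair: their deviations correlated at -0.06 to 0.22 over the fits, with 2 pairs. Sequences and motifs come from RefSeq (GRCm38.p6).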

Additional observations from a re-analysis of the deposited data

Results flagged for a closer look

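The Ccr7 effect differed between T cell classes by a direct test. It was 0.32 higher in CD8 than in CD4 T cells on the log2 scale (edgeR adjusted p = 0.016), from 0.12 in CD8 T cells and -0.20 in CD4 T cells, neither called alone. It was not called in thinned cells or under the cell filter without upper limits.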

How the results depend on the processing

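Of 626 alternative values for the 9 genes, 603 kept their direction, and the cause of the other changes was not tested. The alternative of a ribosomal share under 60% left out at most 1 cell a library, so its values could hardly differ. Genes called with no low-count filter were 1392 (B), 773 (CD4 T), 857 (CD8 T) and 154 (Treg). With the cell filter without upper limits they were 688 (B), 120 (CD8 T) and 0 (Treg), and thinning gave 56 in CD8 T cells and 0 in Tregs. The stricter gate gave 207 (B) and 1 (Treg), the naive gate 520 (B), the gate without Foxp3 277 (CD4 T), DESeq2 172 (CD8 T) and 20 (Treg), and removal of doublets 5 (Treg). Beside those counts of 0 in Tregs, edgeR gave 198 genes (thinned) and 681 (cell filter) at an unadjusted p below 0.05, and DESeq2 was not run on them.

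With the replicate number as a block, which the data do not show to be a pairing, calls were 1182 (B), 788 (CD4 T), 1018 (CD8 T), 112 (Treg) and 2672 (all cells), and members called 2 (B), 2 (CD4 T) and 1 (Treg).

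Members called were 3, 1 and 1 (B, CD4 T, Treg) with DESeq2, 4, 2 and 1 with no filter, 1 and 1 (CD4 T, CD8 T) in thinned cells and with the other cell filter, and 1 in Foxp3-free CD4 T cells. Among all genes, DESeq2 called 310 higher and 155 lower in B cells, and 133 higher and 32 lower in CD4 T cells. In CD4 T cells thinning gave 54 higher and 42 lower, and the other cell filter 129 and 46. With no filter, calls rose among all genes too, as given above. With 1 library left out, genes called ranged from 97 to 2584 (B), 94 to 2077 (CD4 T), 187 to 2168 (CD8 T), 18 to 136 (Treg) and 725 to 3802 (all cells), and members from 1 to 5, 0 to 4, 1 to 6 and 0 to 2 in the 4 classes. The Ccr7 difference was 0.47 thinned, 0.33 with the other cell filter, and 0.27 to 0.36 with 1 library left out. Thinning before gating gave share differences of -0.51 (CD4 T), -1.19 (CD8 T) and -0.074 (Treg) percentage points.

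Directions turned for values near 0 and for some larger ones. With all 4 libraries the larger ones included Ccr7 (-0.14) and Ccr9 (-0.21) in Tregs. They also included Ccr9 (0.28) and Gpr183 (0.14) in CD8 T cells and Cd69 (0.14) in CD4 T cells. With the other cell filter Klf2 was -0.018 and Cxcr5 -0.043 in B cells, and Klf2 -0.015 and Itga4 -0.10 in Tregs, where the stricter gate gave Klf2 -0.0088. Thinning gave Gpr183 -0.058 in CD8 T cells and Ccr7 0.20 in Tregs. Itga4 over all cells was 0.0099 with DESeq2 and 0.0069 with no filter. With 1 library left out the ranges were -0.027 to 0.23 (Klf2) and -0.073 to 0.14 (Cxcr5) in B cells, -0.047 to 0.38 (Cd69) in CD4 T cells, -0.073 to 0.028 (Klf2) and -0.010 to 0.52 (Ccr9) in CD8 T cells, -0.17 to 0.20 (Klf2), -0.21 to 0.33 (Itga4), -0.57 to 0.23 (Ccr9) and -0.036 to 0.28 (Cd69) in Tregs, and -0.023 to 0.014 (Itga4) over all cells. With 2 libraries a group, and 15 to 31 Cxcr4 UMIs a library in Tregs, small differences could not be detected.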
